A study of Mus musculus with 6 samples.

Results

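The 41 genes described here code for the NF-kappaB transcription factors, the proteins that hold them back or release them, and cytokines, receptors and adhesion molecules tied to the pathway. They were taken as listed gene symbols, and all 41 have an entry among the 23791 named genes of the count table. RNA was sequenced from 6 libraries of mouse RM1 cells, a prostate cancer line of C57BL/6 origin. The groups were RM1536 recovered from the femur (called bone, 1 library), RM1536 recovered from the lung (lung, 1 library), cultured RM1536 (2 libraries, a and b) and the cultured parent RM1 without label (2 libraries, a and b). RM1536 is RM1 that carries eCFP, a fluorescent protein, and luc2, a luciferase, and it is a pool of clones, so it differs from RM1 in labelling and in clonal make-up together. Both recovered populations were taken from a single animal on day 16 after cells stained with the dye PKH26 had been injected into the heart, and were the cells that had lost the dye by dividing. All cells were sorted and then expanded in medium with 5% serum until the flask was 85% covered, so every library is of cultured cells.

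NF-kappaB is a dimer of Rel family proteins that waits in the cytoplasm, bound by inhibitors of the I-kappaB family. Signals from receptors for TNF, IL-1 and related ligands run through TRAF adaptors and ubiquitin ligases to the I-kappaB kinase complex, which marks the inhibitor for destruction and frees the dimer to enter the nucleus. A second, slower route processes the Nfkb2 product and acts through Relb. Many targets are themselves inhibitors or adaptors of the pathway, so their RNA is often read as a trace of recent activity, while the activity of the dimers is set mainly at the level of protein.

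Depth ran from 22763835 counts in bone to 30303566 in RM1536 b. Levels are given as CPM (read counts over library size, scaled by TMM factors), and a call is an adjusted p under 0.05 by the edgeR quasi-likelihood test with Benjamini-Hochberg adjustment over 13832 genes. The 4 groups were fitted together, with the spread taken from the RM1536 and RM1 duplicates. Bone and lung, with 1 library each, take their spread from the cultures. Nothing in the labels tells whether a and b were grown separately, so p-values measure only the spread between these libraries, which may be technical, and none covers the spread between animals. Of the prostate markers, the luminal keratin gene Krt8 stood at 966 to 2366 CPM and Krt18 at 275 to 458 CPM, while the basal keratin gene Krt5 and the prostate factor gene Hoxb13 had 0 reads in every library. The 11 leukocyte markers summed to 25.6 CPM in bone, 24.3 in lung, 12.1 and 4.01 in RM1536, and 11.4 and 45.5 in RM1, most of it Cd68. Ptprc, which codes for CD45, had 0 reads in bone and lung. The myeloid gene Lyz2 stood at 2.68 CPM in bone and 2.88 in lung with 0 reads in the 4 cultures. Itgam and Adgre1, below 0.2 CPM, also had reads in bone and lung alone. Other markers of the list ran differently. S100a8 stood at 0.0878 CPM in bone and 0.197 in lung, below 0.201 and 0.226 in RM1536. Laptm5 stood at 2.41 CPM in bone and 0.276 in lung, against 0.241 and 0.129 in RM1536 and 1.54 and 1.91 in RM1. Fcer1g stood at 0.0878 CPM in bone and 0.434 in lung, against 0.362 in RM1536 a. The 5 osteoblast and osteoclast markers, chiefly Ctsk, summed to 7.07 CPM in bone, 13.9 in lung, 2.61 and 0.874 in RM1536, and 0.468 and 0.354 in RM1. The part of such RNA in the bone and lung results was not tested. The duplicates differed in interferon-stimulated genes: the median of 26 was 4.94 CPM in bone, 7.97 in lung, 25.3 and 3.22 in RM1536 a and b, and 114 and 166 in RM1 a and b.

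Per kilobase of annotated exon, Rela was the most abundant subunit gene, at a mean over the 6 libraries of 39.8 CPM per kb, followed by Nfkb2 at 19.5, Nfkb1 at 10.99, Relb at 3.80 and Rel at 1.14. Across all members Tnfaip2, which codes for a TNF-induced protein linked to membrane protrusions, stood highest at 106 CPM per kb (364 to 789 CPM in the 6 libraries), ahead of the TNF receptor gene Tnfrsf1a at 52.3 CPM per kb. These lengths join the exons of all annotated transcripts, which lowers the value of a gene with long, little-used exons. The order of the subunits depends on them. By mean CPM Nfkb1 stood first, at 132.6, ahead of Rela at 122.3 and Nfkb2 at 89.6. Their joined exons span 12061, 3072 and 4584 bases. Classical inflammatory cytokines were at or near the detection limit. Tnf had 0 reads in all 6 libraries, and 3 reads, the limit that a count of 0 allows, equal 0.0971 to 0.132 CPM. Il1b, the gene of the secreted IL-1 beta, had 1 read in bone, 2 in lung and 0 in the 4 cultures. Il1a had at most 4 reads in a library, Csf3 at most 8 and Icam1, an adhesion gene that TNF raises in many cells, at most 5. These 5 genes did not pass the low-count filter and were not tested, which left 36 members. Of the 5 receptor genes, Cd40 was also near that limit, at 0 to 24 reads, and the other 4 were well above it. Tnfrsf1a, for one, stood at 99.7 CPM in bone, 118 in lung, 129.7 and 119 in RM1536, and 169 and 177 in RM1. Il1r1, the signalling receptor for IL-1, stood at 67.0 CPM in bone, 68.1 in lung, 49.4 and 46.7 in RM1536, and 40.8 and 41.6 in RM1.

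**Figure D1:**
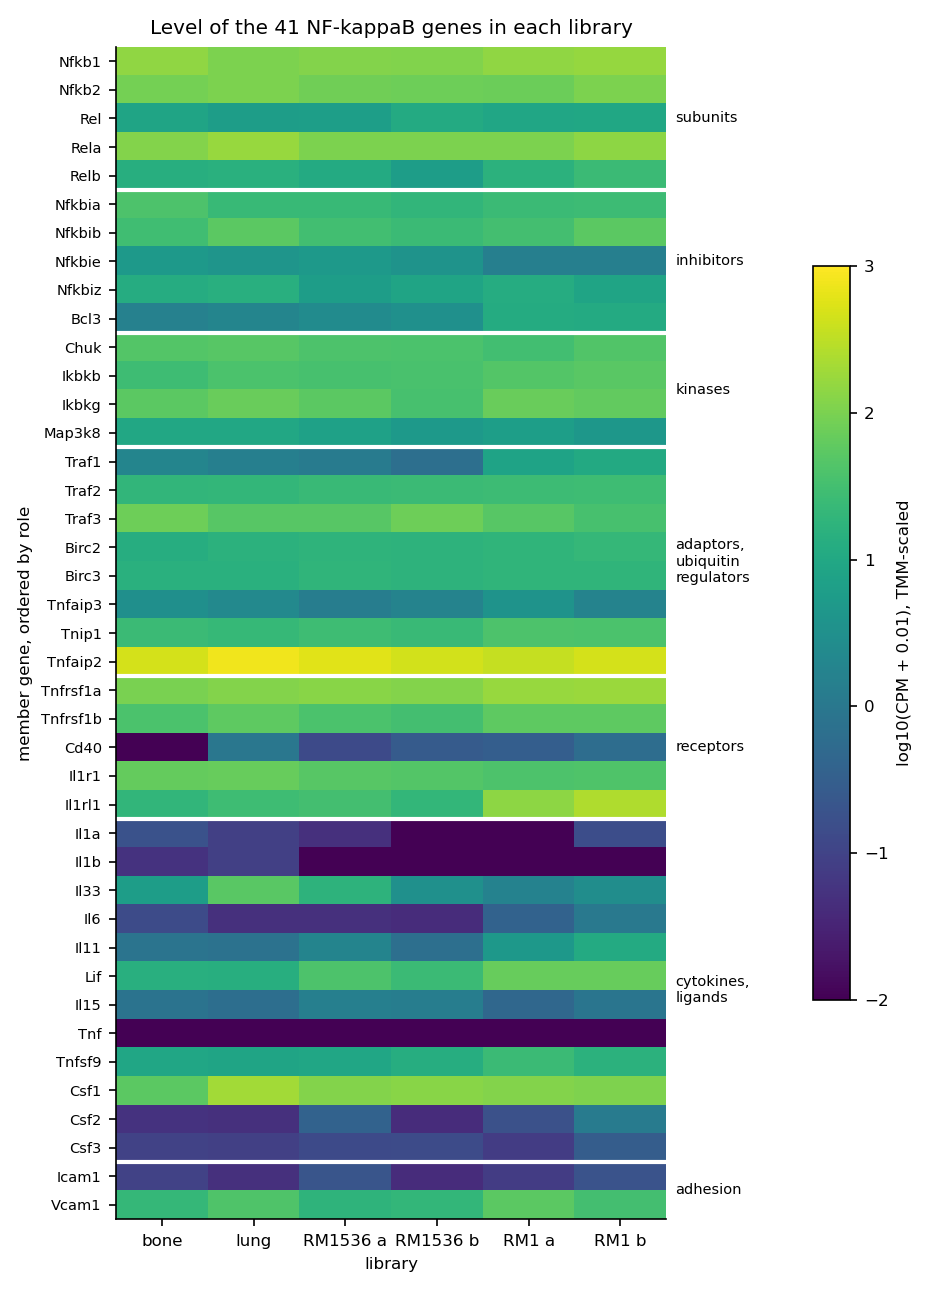
Level of each of the 41 genes (rows, ordered by role) in each library (columns), as log10 of the TMM-scaled CPM plus 0.01, where the darkest colour at -2 is 0 reads. Tnf is dark in all 6 columns and Tnfaip2 is bright in all of them, while Il1rl1, Traf1 and Bcl3 are brighter in the RM1 columns than in the other 4.

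The comparison of RM1536 with RM1 asks how the labelled, pooled line differs from its parent. 3 members fell in RM1536: the IL-33 receptor gene Il1rl1, the adaptor gene Traf1 and the inhibitor-family gene Bcl3. Each was also low in the bone and lung libraries. The subunit and kinase genes did not pass the test. In all, 3 of 36 tested members were called, against 5.64% of all genes tested. All 3 were lower, against 3.54% called lower over all genes, and 0 were higher, against 2.10%. An unadjusted p under 0.05 was found in 15 members, against 23.0%, a log2 fold change at least 2-fold below RM1 in 10, against 10.6%, and a difference of at least 2-fold upwards in 3, against 9.20%. DESeq2 called 10 members, 8 lower and 2 higher, against 10.8% of all genes it tested (919 lower and 552 higher). Without the low-count filter, edgeR tested 22081 genes, among them every member but Tnf. It called 11 members, 9 lower and 2 higher, against 10.8% of those genes (1414 lower and 980 higher). In the main fit the median log2 fold change of the 36 tested members was -0.49, beside 0.02 over all genes tested. In 21 members both RM1536 libraries lay below both RM1 libraries, against 26.9% of all genes tested, and in 4 both lay above, against 27.2%. No test was made of these counts, and a member expressed in 1 group only passes the filter through that group.

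Il1rl1 codes for ST2, the receptor that pairs with the IL-1 receptor accessory protein to bind IL-33. The gene lies on chromosome 1 from 40429570 to 40465415 (GRCm38, plus strand). It stood at 20.0 CPM in bone and 27.5 in lung, 32.0 and 20.4 in RM1536 a and b, and 140.5 and 254 in RM1 a and b. The RM1 libraries were high and the other 4 low, with no overlap. The log2 fold change of RM1536 over RM1 was -2.91 ± 0.39 (SE, n = 2 and 2; edgeR adjusted p = 0.0182). In bulk RNA, fewer expressing cells and less RNA per cell cannot be told apart. Counts per gene do not separate the membrane-bound from the soluble form of ST2. The call was lost without RM1536 b, where the log2 fold change was -2.65. It held under the other 10 alternatives, which include a replicate block added after seeing the data. Over all 11 the log2 fold change lay between -3.31 and -2.43.

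Traf1 codes for an adaptor of TNF receptor family complexes that is induced by NF-kappaB in many cells and lacks the ubiquitin ligase domain of other TRAFs. It lies on chromosome 2 from 34941750 to 34961772 (minus strand). It stood at 1.84 CPM in bone and 1.46 in lung, 1.21 and 0.647 in RM1536 a and b, and 7.91 and 10.8 in RM1 a and b. The groups did not overlap, and the log2 fold change was -3.34 ± 0.46 (edgeR adjusted p = 0.0193). The edgeR adjusted p was 0.0704 without RM1536 b.

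Bcl3 codes for an atypical I-kappaB protein of the nucleus that binds the dimers made from Nfkb1 and Nfkb2 products and can act as a co-activator or co-repressor. It lies on chromosome 7 from 19808462 to 19822770 (minus strand). It stood at 1.58 CPM in bone and 1.89 in lung, 2.53 and 3.27 in RM1536 a and b, and 12.0 and 11.3 in RM1 a and b. The RM1 libraries were high and the other 4 low, with no overlap. Of its exons, 161 bases lie opposite the annotated gene Gm16175, from which reads cannot be told apart without strand. The log2 fold change was -2.003 ± 0.32 (edgeR adjusted p = 0.0283). The call was lost without any 1 of the 4 culture libraries (edgeR adjusted p = 0.0626 to 0.0899), with the log2 fold change then between -2.22 and -1.86. Interferon-stimulated genes, whose medians are given above, were low in the same 4 libraries as these 3 genes, and their part in the result was not tested.

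**Figure D2:**
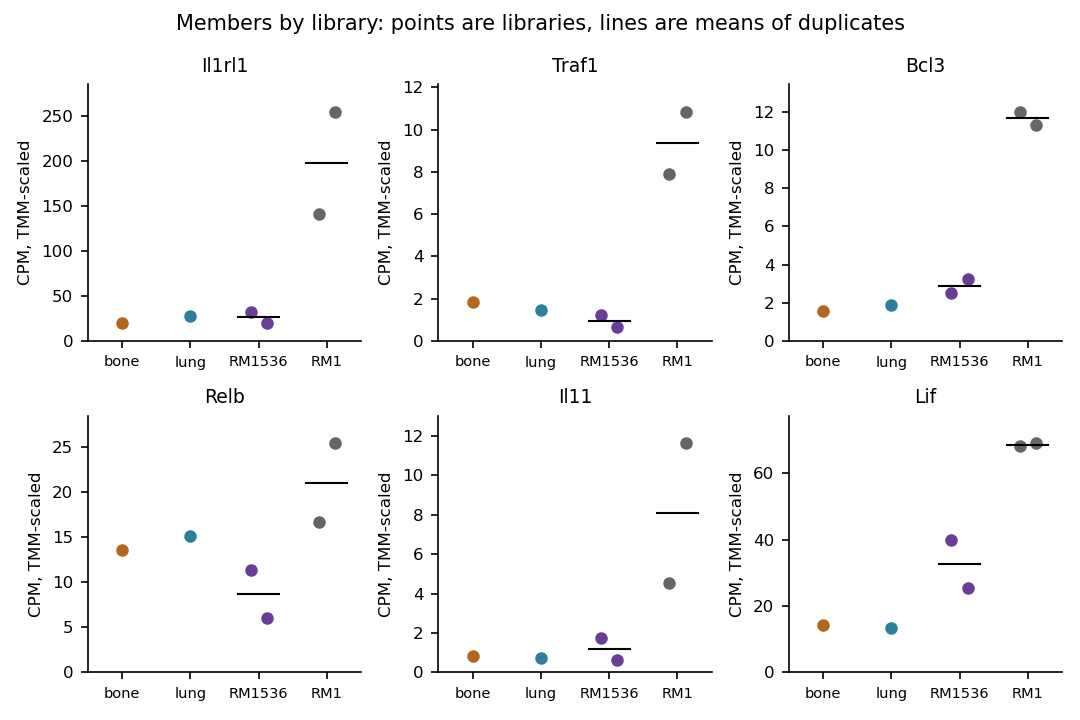
TMM-scaled CPM (linear axes from 0) of 6 members, with a point for each library and a line at the mean of the duplicates. Il1rl1, Traf1 and Bcl3 are higher in both RM1 libraries than in the other 4, Relb and Il11 have duplicates that lie apart, and Lif is lowest in bone and lung.

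The promoters of the 3 called genes are shown because Bcl3 and Traf1 are textbook targets of the pathway, and that of the inhibitor gene Nfkbia and the cytokine gene Il6 for comparison, since both are classical NF-kappaB targets. Sequences are from RefSeq (GRCm38.p6), read 5′ to 3′ on the strand of the gene, from 200 bases before the annotated start to 30 after it. Capitals mark matches to the kappaB consensus, a motif of 10 bases searched on both strands.
Bcl3, chr7:19822726-19822955, minus strand: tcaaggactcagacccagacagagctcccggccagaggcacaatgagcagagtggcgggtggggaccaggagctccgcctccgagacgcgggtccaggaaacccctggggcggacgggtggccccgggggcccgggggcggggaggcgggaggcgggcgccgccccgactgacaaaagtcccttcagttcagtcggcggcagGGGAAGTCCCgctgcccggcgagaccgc
Traf1, chr2:34961743-34961972, minus strand: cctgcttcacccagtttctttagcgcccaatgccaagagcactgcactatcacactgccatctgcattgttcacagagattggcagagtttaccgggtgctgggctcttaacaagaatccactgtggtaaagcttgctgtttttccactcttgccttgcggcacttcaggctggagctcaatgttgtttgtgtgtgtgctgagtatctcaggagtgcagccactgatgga
Il1rl1, upstream start, chr1:40429370-40429599, plus strand: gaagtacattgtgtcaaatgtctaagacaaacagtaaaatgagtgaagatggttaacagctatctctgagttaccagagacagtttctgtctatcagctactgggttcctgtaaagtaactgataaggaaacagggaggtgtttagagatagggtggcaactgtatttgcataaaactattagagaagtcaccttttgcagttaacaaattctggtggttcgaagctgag
Il1rl1, downstream start, chr1:40439429-40439658, plus strand: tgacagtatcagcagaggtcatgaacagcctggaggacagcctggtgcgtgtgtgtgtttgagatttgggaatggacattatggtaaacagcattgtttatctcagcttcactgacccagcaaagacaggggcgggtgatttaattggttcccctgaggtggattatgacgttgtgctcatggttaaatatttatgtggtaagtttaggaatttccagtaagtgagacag
Nfkbia, chr12:55492618-55492847, minus strand: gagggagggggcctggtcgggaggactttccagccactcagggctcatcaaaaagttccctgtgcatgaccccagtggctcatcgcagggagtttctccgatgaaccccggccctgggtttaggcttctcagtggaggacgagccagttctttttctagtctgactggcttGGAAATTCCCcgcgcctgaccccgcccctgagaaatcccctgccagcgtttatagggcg
Il6, chr5:30012914-30013143, plus strand: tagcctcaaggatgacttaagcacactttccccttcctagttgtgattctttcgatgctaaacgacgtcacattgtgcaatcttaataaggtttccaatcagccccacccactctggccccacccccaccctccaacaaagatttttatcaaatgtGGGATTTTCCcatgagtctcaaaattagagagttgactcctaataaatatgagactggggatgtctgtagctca

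Bcl3 holds the match GGGAAGTCCC, which reads as a match on both strands, from base 3 after its start. Nfkbia holds GGAAATTCCC, a match on the other strand, from base -29, and Il6 holds GGGATTTTCC from base -44. Neither window of Il1rl1 nor the window of Traf1 holds the letters. The same is true of other members of the pathway list that are not shown, among them Tnf, Il1b, Birc3 and Icam1. Of the 31 members with a RefSeq window (42 windows of 300 bases, from 250 before to 50 after a start), 13 hold a match in at least 1 window, or 41.9%, against 9.55% of all 27025 genes with a window. By window, 15 of 42 hold a match, or 35.7%, against 8.46% of all 32851 windows. The members were listed as pathway genes, many of them known targets, so this share describes the list. A match is a string of letters and not a binding site, and these matches overlap one another: the 3 matches of Rel cover 1 stretch of sequence, as do the 4 of Tnip1.

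**Figure D3:**
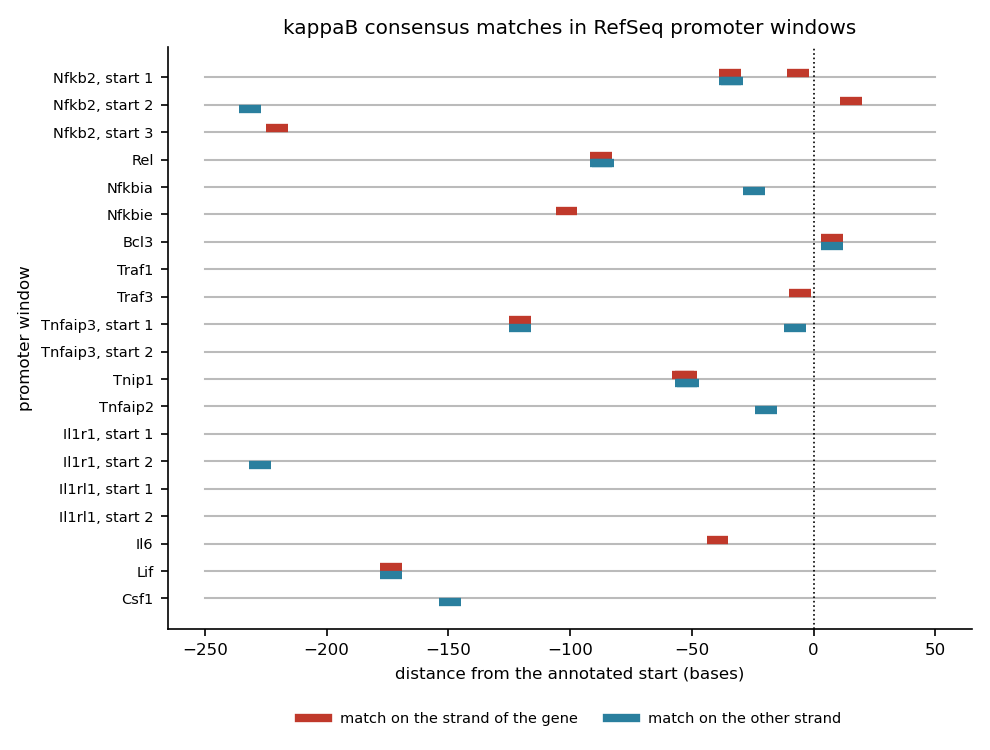
Position of kappaB consensus matches in RefSeq promoter windows, by distance from the annotated start in bases, for the members with a match and for the called genes Traf1 and Il1rl1. Bcl3 has its match just after the start, Nfkbia, Il6 and Traf3 just before it, and the windows of Traf1 and Il1rl1 are empty.

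None of the 5 subunit genes passed in RM1536 against RM1, by edgeR. Nfkb1, which codes for the precursor of the p50 subunit, stood at 149 CPM in bone, 103 in lung, 118 and 113 in RM1536, and 151 and 161 in RM1. Its RM1536 values lay below those of RM1 without overlap. Rela, the main activating subunit, stood at 117 CPM in bone, 167 in lung, 105 and 103 in RM1536, and 104 and 139 in RM1, and the cultures overlapped. Nfkb2, which codes for the precursor of p52, stood at 90.0 CPM in bone, 104 in lung, 83.3 and 80.0 in RM1536, and 76.6 and 104 in RM1. Rel, a subunit best known from lymphocytes, stood between 6.04 and 11.3 CPM in every library. Relb, the partner of p52 in the slower route, stood at 13.7 CPM in bone, 15.2 in lung, 11.4 and 6.08 in RM1536, and 16.7 and 25.4 in RM1. Its log2 fold change of -1.27 ± 0.39 was the furthest from 0 among the subunits and missed the threshold (edgeR adjusted p = 0.126; DESeq2 0.0398).

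Of the 5 inhibitor genes, 4 had a log2 fold change below 0 in RM1536 over RM1, and Nfkbie alone lay above 0. Their median was -0.53, and only Bcl3 was called. Nfkbia, the I-kappaB alpha gene and a rapid target of the pathway, stood at 40.2 CPM in bone, 23.5 in lung, 23.3 and 19.6 in RM1536, and 25.6 and 26.6 in RM1. Nfkbie, the I-kappaB epsilon gene, stood at 5.05 CPM in bone, 3.99 in lung, 5.07 and 3.75 in RM1536, and 1.44 and 1.45 in RM1. Both RM1536 libraries were above both RM1 libraries, with a log2 fold change of 1.61 ± 0.37 that missed the threshold (edgeR adjusted p = 0.0631; DESeq2 0.0313). Nfkbib had 28.9 CPM in bone, 54.8 in lung, 30.6 and 25.1 in RM1536, and 32.3 and 56.2 in RM1. Of its exons, 356 bases lie opposite those of Ccer2 and Sirt2, and Sirt2 had a like pattern, at 60.1 CPM in bone, 100.1 in lung, 55.1 and 40.3 in RM1536, and 52.5 and 83.1 in RM1. Reads cannot be told apart there without strand, nor over the 830 such bases of Nfkb2, 314 of Tnfaip2, 192 of Tnfsf9, 96 of Csf2 and 61 of Vcam1. Nfkbiz, an atypical nuclear inhibitor that helps to switch on Il6 in macrophages, had 12.2 CPM in bone, 14.1 in lung, 6.07 and 8.28 in RM1536, and 12.3 and 8.42 in RM1.

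None of the 4 kinase genes was called. Chuk and Ikbkb, the catalytic kinases, stood at 38.1 to 39.3 and 35.1 to 36.1 CPM in RM1536, against 31.2 to 44.0 and 46.9 to 53.4 CPM in RM1. Ikbkg, which codes for the scaffold NEMO, stood at 54.3 and 35.2 CPM in RM1536 and 73.3 and 62.3 CPM in RM1. Of its exons, 418 bases lie opposite those of G6pdx, from which reads cannot be told apart without strand. Between the cultures G6pdx ran the other way, at 166 and 171 CPM in RM1536 and 108 and 103 CPM in RM1. Map3k8, the kinase TPL2, stood between 4.46 and 10.02 CPM in all 6 libraries. Among adaptors and ubiquitin regulators other than Traf1, 0 of 7 were called. Birc2 and Birc3, ubiquitin ligases of the receptor complex, stood between 13.3 and 21.3 CPM in every library. Traf2, the adaptor that recruits them, ranged from 19.8 to 28.3 CPM. Traf3, which restrains the slower route, had 79.9 CPM in bone, 49.4 in lung, 49.5 and 79.7 in RM1536, and 49.5 and 35.4 in RM1, so both its RM1536 duplicates and its groups lay apart by a like amount. Tnfaip3, which codes for the ubiquitin-editing brake A20, stood at 3.07 CPM in bone, 2.21 in lung, 1.29 and 1.75 in RM1536, and 3.67 and 1.70 in RM1. Tnip1, a partner of A20, stood at 28.4 and 24.3 CPM in RM1536 and 40.9 and 39.0 CPM in RM1 without overlap, and was not called.

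Cytokine genes of the IL-6 family lay lower in RM1536 without passing the edgeR test. Il11 stood at 0.834 CPM in bone, 0.750 in lung, 1.77 and 0.647 in RM1536, and 4.54 and 11.6 in RM1, a log2 fold change of -2.75 ± 0.68 (edgeR adjusted p = 0.0791). Its duplicates differed by more than 2-fold within both cultures. DESeq2 called it (adjusted p = 0.00395), as did edgeR without RM1 a (0.0473, log2 fold change -3.30). By edgeR the log2 fold change was -1.92 without RM1 b (adjusted p = 0.228), -3.66 without RM1536 a (0.0973) and -2.21 without RM1536 b (0.246). Lif, a cytokine known for keeping mouse embryonic stem cells undifferentiated, stood at 14.4 CPM in bone, 13.5 in lung, 40.1 and 25.5 in RM1536, and 68.3 and 69.0 in RM1. RM1536 lay below RM1 and above bone and lung without overlap. The log2 fold change of RM1536 over RM1 was -1.07 ± 0.27 (edgeR adjusted p = 0.0838; DESeq2 0.0118). Il6 itself had 3 reads in bone, 1 in lung, 1 in each RM1536 library, and 11 and 29 in RM1 a and b. Over the groups that is 2 reads in RM1536 against 40 in RM1, a ratio of 0.0522 (exact 95% counting interval 0.00611 to 0.201), and the gene was not called. Csf2 had 9 and 1 reads in RM1536 and 5 and 34 in RM1, so its duplicates differed more than its groups. Tnfsf9, the ligand of the co-stimulatory receptor 4-1BB, stood at 8.93 and 13.3 CPM in RM1536 and 25.1 and 16.1 CPM in RM1. Il15 stood at 1.41 and 1.33 CPM in RM1536 and 0.468 and 0.849 CPM in RM1. Vcam1, an adhesion gene raised by TNF in endothelium, stood at 18.2 and 20.2 CPM in RM1536 and 54.8 and 32.0 CPM in RM1, with a log2 fold change of -1.18 ± 0.31 (edgeR adjusted p = 0.0875; DESeq2 0.0119). The groups did not overlap, and edgeR called it without RM1 b (log2 fold change -1.52, adjusted p = 0.0459) but not without RM1 a (-0.77, 0.252), RM1536 a (0.208) or RM1536 b (0.229).

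Il33, which codes for the ligand of the Il1rl1 product, lay higher in both RM1536 libraries than in RM1, but RM1536 b lay close to RM1 b. It stood at 5.97 CPM in bone, 53.2 in lung, 16.9 and 3.17 in RM1536 a and b, and 1.64 and 2.87 in RM1 a and b. Its log2 fold change in RM1536 over RM1 was 2.15 ± 0.78 and missed the threshold (edgeR adjusted p = 0.174; DESeq2 0.0257), with a 5.31-fold difference between RM1536 a and b. Without RM1536 a the log2 fold change was 0.46, and without RM1536 b it was 2.88. Among the other receptors, Tnfrsf1b stood at 38.4 and 32.2 CPM in RM1536 and 58.1 and 58.8 CPM in RM1 without a call, and Cd40 had 3 and 8 reads in RM1536 and 9 and 17 reads in RM1.

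**Figure D4:**
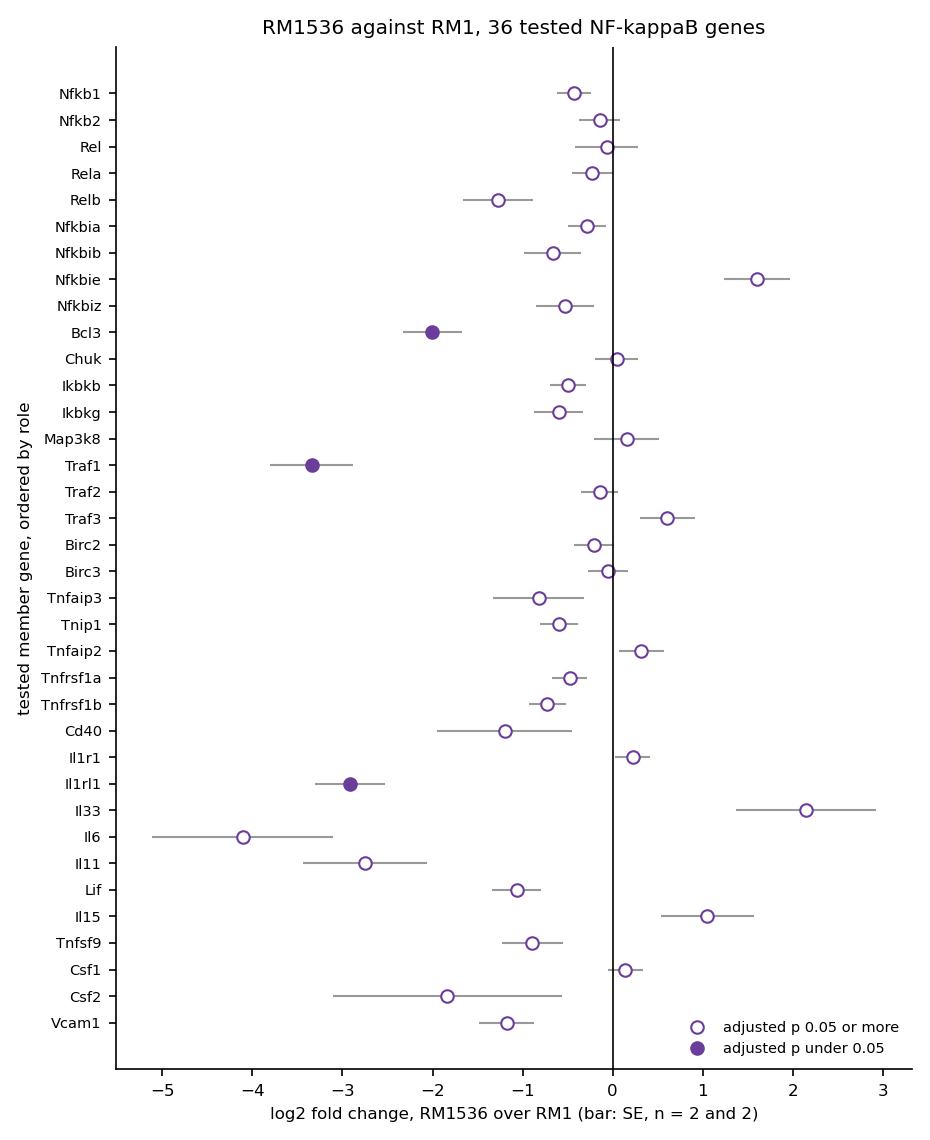
Log2 fold change of RM1536 over RM1 (horizontal axis, bars are the SE) for the 36 tested members in order of role, with filled points for the called genes. Traf1, Il1rl1 and Bcl3 are filled at -3.34, -2.91 and -2.003, and the fitted values of Il6, Csf2 and Cd40 rest on few reads.

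Pathway genes outside the 41 were counted from lists that were also chosen with earlier results known. Of 41 tested receptors, adaptors, kinases and ubiquitin enzymes, 2 fell in RM1536, against 3.54% of all genes tested, and 0 rose, against 2.10%, with a median log2 fold change of -0.28. Tnip3, which codes for a further A20-binding inhibitor, stood at 0.925 and 0.744 CPM in RM1536 and 7.95 and 4.60 CPM in RM1 (log2 fold change -2.91 ± 0.47, edgeR adjusted p = 0.0276). Tlr3, the double-stranded RNA receptor gene, stood at 5.51 and 2.04 CPM in RM1536 and 21.4 and 22.5 CPM in RM1 (-2.55 ± 0.50, 0.0441; -3.46 without RM1536 a). Of 27 tested target genes outside the 41, 2 fell, against 3.54% of all genes tested, and 1 rose, against 2.10%. Their median log2 fold change was -0.11, beside 0.02 over all genes tested. Sele, which codes for the adhesion molecule E-selectin, stood at 2.74 and 2.33 CPM in RM1536 and 54.7 and 38.3 CPM in RM1 (-4.20 ± 0.31, 0.00614). Tapbp, a factor of MHC class I peptide loading, had a log2 fold change of -1.30 ± 0.25 (0.0416), and the chemokine gene Ccl7 rose by 2.11 ± 0.34 on the log2 scale (0.0276). Sele kept its call under all 11 alternatives, among them the replicate block added after seeing the data. The calls of Tnip3, Tlr3, Ccl7 and Tapbp were lost without RM1536 b and without at least 1 other culture library.

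The comparison of bone with RM1536 asks what sets cells recovered from bone apart from the line that was injected. None of the 36 tested members passed, by edgeR, against 0.0145% of all genes tested, and 4 had an unadjusted p under 0.05, against 9.92%. DESeq2 called 1 member, Csf1, against 3.04% of all genes it tested, and limma-voom 0. The median log2 fold change of the members was 0.02, beside -0.03 over all genes. At least 2-fold lower in bone were 4 members, against 8.68%, and 3 were at least 2-fold higher, against 7.14%. Bone lay below both RM1536 libraries in 11 members, against 35.1% of all genes tested, and above both in 16, against 33.6%.

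Csf1, the growth factor of macrophages and osteoclast precursors, stood at 54.2 CPM in bone against 118 and 132 CPM in RM1536. Bone was also the lowest of all 6 libraries, with 206 CPM in lung and 118 and 108 CPM in RM1. The log2 fold change of bone over RM1536 was -1.20 ± 0.25 (edgeR adjusted p = 0.178; DESeq2 0.00358). Lif had a log2 fold change of -1.19 ± 0.35 in bone (edgeR adjusted p = 0.323). The other members with a difference of at least 2-fold in bone and a mean of at least 1 CPM were Traf1 (log2 fold change 1.0005 ± 0.53, adjusted p = 0.640) and Tnfaip3 (1.01 ± 0.60, 0.681), both at low levels. Nfkbia, at 40.2 CPM, was higher in bone than in any other library. Cd40, the receptor for the T cell ligand CD154, had 0 reads in bone, at least 1.498-fold lower than in RM1536 against a floor of 3 reads over the group.

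For lung against RM1536, again none of the 36 members passed, by edgeR, where 0% of all genes tested passed. Of the members, 9 had an unadjusted p under 0.05, against 13.8% of all genes, and DESeq2 called 0, against 2.94%, as did limma-voom. The median log2 fold change was 0.13, beside -0.03 over all genes. At least 2-fold higher in lung were 3 members, against 8.74%, and 3 were at least 2-fold lower, against 11.3%. Lung lay above both RM1536 libraries in 19 members, against 37.6%, and below both in 12, against 39.2%.

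Il33, an alarmin held in the nucleus of barrier and stromal cells, stood at 53.2 CPM in lung against 16.9 and 3.17 CPM in RM1536. The log2 fold change was 2.41 ± 0.85 (edgeR adjusted p = 0.333), and lung was the highest of the 6 libraries. It was 4.10 without RM1536 a and 1.68 without RM1536 b. Vcam1 stood at 42.3 CPM in lung against 18.2 and 20.2 CPM in RM1536 (log2 fold change 1.14 ± 0.36, edgeR adjusted p = 0.323). Lif lay lower in lung, with a log2 fold change of -1.28 ± 0.35 (adjusted p = 0.308), close to its value in bone; both comparisons share the RM1536 libraries. Rela, at 167 CPM, was highest in lung. One stromal marker, the collagen gene Col1a1, stood far apart in lung. The 8 stromal markers summed to 684 CPM in lung, against 36.9 in bone, 88.3 and 162 in RM1536, and 28.7 and 34.5 in RM1. Col1a1 made up 604 of the 684 CPM. The other 7 summed to 80.0 CPM in lung, against 36.1 in bone, 79.4 and 134 in RM1536, and 11.3 and 16.3 in RM1. Of the 8 markers, 7 were tested, Col1a1 among them but not Thy1. Of these, 5 lay lower in lung than in RM1536, with a median log2 fold change of -0.71. Pdgfra, at 28.3 CPM, was highest in lung, against 3.27 to 13.96 CPM elsewhere, while Pdgfrb stood at 19.8 CPM in lung and 59.5 CPM in RM1536 b, Dcn at 24.3 CPM in lung and 57.8 CPM in RM1536 a, and Acta2 at 7.34 CPM in lung and 46.3 CPM in RM1536 b. Col1a2 was at most 1.04 CPM, Lum at most 1.20 CPM and Thy1 at most 0.0324 CPM in any library. The 6 endothelial markers summed to 6.08 CPM in lung, of which Vwf made up 4.89, against 0.712 to 2.59 CPM elsewhere. The part of stromal or endothelial RNA in the lung values of Il33, Vcam1 and Csf1 was not tested.

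**Figure D5:**
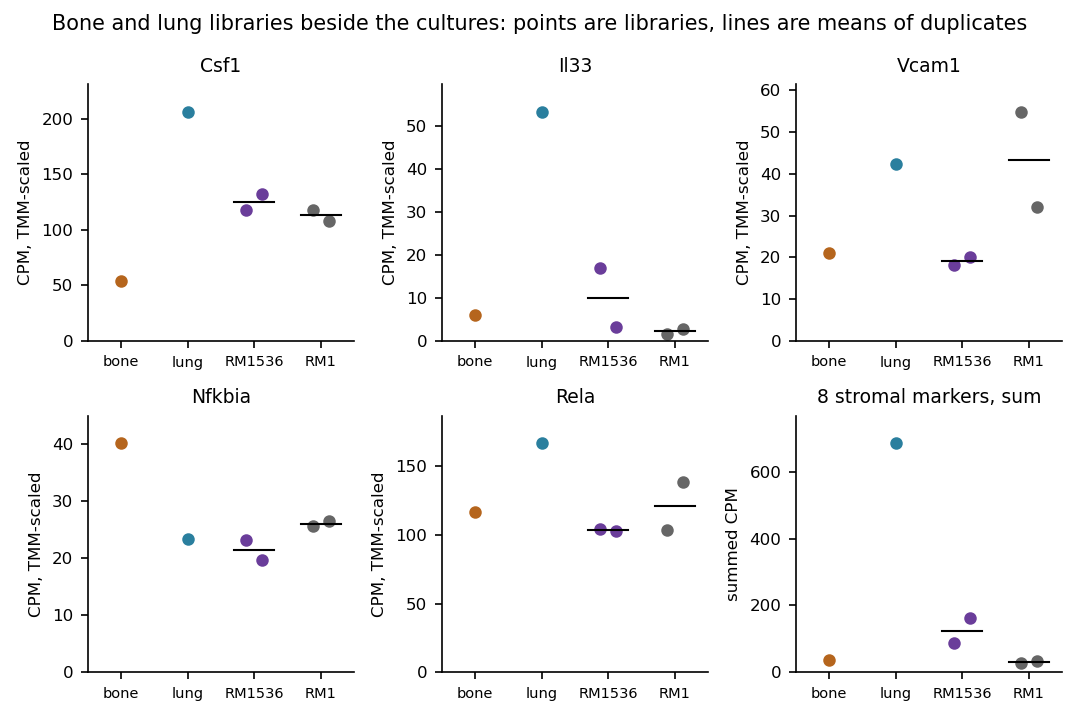
TMM-scaled CPM (linear axes from 0) of Csf1, Il33, Vcam1, Nfkbia and Rela, and the summed CPM of 8 stromal markers, with a point for each library and a line at the mean of the duplicates. Lung is high for Csf1, Il33, Rela and the stromal sum, which Col1a1 dominates, and bone is low for Csf1 and high for Nfkbia.

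The 2 recovered libraries lay on the same side of RM1536 in 20 members: 13 were above both RM1536 libraries in bone and in lung, against 19.7% of all genes, and 7 were below, against 21.5%. The 13 included Nfkb2, Rela, Relb, Nfkbia, Nfkbiz and Il1r1, and the 7 included Bcl3, Traf2, Birc2, Birc3 and Lif. Some of these gaps were narrow, on both sides. Nfkbia stood at 23.5 CPM in lung against 23.3 CPM in RM1536 a. Tnfrsf1b stood at 38.5 CPM in bone against 38.4 CPM in RM1536 a, and Vcam1 at 21.1 CPM in bone against 20.2 CPM in RM1536 b. Birc3 stood at 14.9 CPM in bone and 15.0 CPM in lung, against 18.9 and 16.8 CPM in RM1536. Bone lay below and lung above in 3 members (Ikbkb, Cd40 and Csf1), against 7.81% of all genes, and bone above and lung below in 2 (Nfkb1 and Traf3), against 7.58%. Bone and lung came from 1 mouse and share the RM1536 libraries as their comparison, so the counts are not independent.

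The comparison of bone with lung, 1 library each, asks how tumour cells from the skeleton differ from those of another site in the same animal. None of the 36 members passed, by edgeR, against 0.00723% of all genes tested, and 4 had an unadjusted p under 0.05 (Nfkbia, Cd40, Il33 and Csf1), against 8.47%. DESeq2 called 1 member, Csf1, against 1.81% of all genes it tested, and limma-voom 0. Members at least 2-fold lower in bone numbered 4, against 9.67% of all genes, and 1 was at least 2-fold higher, against 9.36%. Csf1 stood at 54.2 CPM in bone and 206 CPM in lung, a log2 fold change of -1.93 ± 0.29 (edgeR adjusted p = 0.198; DESeq2 5.62e-06). Both RM1536 libraries lay between them. Il33 stood at 5.97 CPM in bone and 53.2 CPM in lung (log2 fold change -3.15 ± 1.11, adjusted p = 0.540), a gap beside which the duplicates of RM1536 differed 5.31-fold. Vcam1 stood at 21.1 CPM in bone and 42.3 CPM in lung (-1.0009 ± 0.43, 0.595). Cd40 had 0 reads in bone and 24 in lung, at least 7.19-fold lower in bone against a floor of 3 reads. Nfkbia ran the other way, at 40.2 CPM in bone and 23.5 CPM in lung. The called genes of the culture comparison were low in both, below every RM1 value: Traf1 at 1.84 CPM in bone and 1.46 in lung, Bcl3 at 1.58 and 1.89, and Il1rl1 at 20.0 and 27.5.

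Duplicates of some members lay far apart, at about the share found over all genes. RM1536 a and b differed at least 2-fold in 4 of the 36 tested members, against 13.8% of all genes, namely Cd40, Il33, Il11 and Csf2. RM1 a and b did so in 5, against 12.9%, namely Tnfaip3, Cd40, Il6, Il11 and Csf2. By contrast the duplicates of Nfkb1, Nfkbia, Traf2, Birc2, Birc3, Tnfrsf1a and Il1r1 lay within 1.19-fold of each other in both cultures.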

How the data were processed

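Messenger RNA was measured in 6 libraries. The authors deposited raw counts per gene symbol, per the file headers. Per the labels' protocols, libraries were made from total RNA with the NEBNext Ultra kit. The submitters' processing notes name GRCm38, TopHat2 2.1.10, HTSeq and edgeR, without their roles; strand setting, counting mode and annotation were not found among these, so reads of genes that overlap on opposite strands cannot be told apart. A blank entry, 0.00626% to 0.00830% of a library, was left out. The fits used edgeR 4.0.16 in R 4.3.3, with TMM scaling (factors 0.942 to 1.03), filterByExpr by group, quasi-likelihood fit of all 6 libraries in 4 groups, 2 residual degrees of freedom, common dispersion 0.0725, and 4 comparisons with Benjamini-Hochberg adjustment over 13832 genes. DESeq2 1.42.0, limma-voom 3.58.1, other scaling and filters, a replicate block and leaving out each culture library were alternatives. The SE is the log2 fold change over the square root of F. Intervals and limits cover counting error only. Positions and exon lengths are from GENCODE M21 (GRCm38). The members and lists were chosen with earlier results of these data known. Levels in every library are given for called members, for those at 2-fold or more with a mean of at least 1 CPM, and for the subunits and Nfkbia. The edgeR code was tested on simulated data. The duplicates differed beyond counting error (chi-square per degree of freedom 65.3 in RM1536 and 64.9 in RM1).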

Additional observations from a re-analysis of the deposited data

How the results depend on the processing

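In RM1536 against RM1, 3 members were called; DESeq2 called 10, edgeR without the low-count filter 11, and leaving out 1 culture library gave 0 to 3, with 0 without RM1536 b. In bone against RM1536, DESeq2 called 1 member and edgeR without the filter 2; in lung against RM1536 edgeR without the filter called 4; in bone against lung DESeq2 called 1 and edgeR without the filter 3. Other scaling (RLE), limma-voom and the stricter filter left each count of called members as it was. With 1 library of a pair left out, the lone library was assumed to vary like the other cultures. The median log2 fold change of the members ran from -0.50 to -0.32 in RM1536 against RM1, from -0.000313 to 0.18 in bone against RM1536 and from 0.10 to 0.33 in lung against RM1536 when culture libraries were left out in turn. The stricter filter, which tests fewer genes, gave 0.10 in bone against RM1536, 0.27 in lung against RM1536 and -0.15 in bone against lung. None of 264 single-gene values turned its sign, 26 lost their call and 36 gained one; the cause was not tested. Over all genes, RM1536 against RM1 gave 780 calls, 1471 with DESeq2, 2394 without the filter, and 196 to 513 with a culture library left out. Without the filter each comparison tested 22081 genes, against 13832 in the main fit. Bone against RM1536 gave 2 calls, 380 with DESeq2 and 859 without the filter. Lung against RM1536 gave 0, 359 and 1299 in the same order, and bone against lung 1, 221 and 754. Leaving out a culture library gave 0 to 128, 0 to 7 and 1 to 32 calls in these 3 comparisons. limma-voom gave 0 calls over all genes in bone against RM1536 and in bone against lung, where the stricter filter also gave 0. The letters a and b do not pair samples by the labels. As a replicate block they left 1 called member (Il1rl1) and 250 genes in RM1536 against RM1, and no members in the others. The a minus b differences correlated at r = -0.44 across 13832 genes, which are not independent. Crossed letters were therefore added as a replicate block after seeing the data, so calls under this block are no independent support. Called members were 15 in RM1536 against RM1, 3 in bone against RM1536, 7 in lung against RM1536 and 3 in bone against lung. Over all 13832 genes tested the calls were 3318, 969, 1945 and 934 in the same order. Depth limits Tnf, Il1a, Il1b, Il6, Csf2, Csf3, Icam1 and Cd40.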
